A study of Mus musculus with 6 samples.

Results

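The genes described here encode nuclear subunits of respiratory complexes II, III and IV, the electron carrier cytochrome c, and complex V, the mitochondrial ATP synthase, with its inhibitor. The list holds 35 genes, named by their place in these complexes and not by any measured value. Complex I and the cytochrome c oxidase subunits that come in tissue isoforms were left out of it. Of the 35 genes, 34 had a probe set of their own among the 19937 genes tested, namely 4 in complex II, 9 in complex III, 4 in complex IV, 16 in complex V and cytochrome c itself. The remaining gene, Cox7c of complex IV, was represented only by probe sets annotated to a second gene as well, so no value was attributed to it. Atp5f1 and Atp5s stand in the array annotation under the symbols Atp5pb and Dmac2l and were matched through their gene identifiers.

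RNA was taken from inguinal white adipose tissue, fat from under the skin of the groin, of 3 Atf7 knockout (KO) mice and 3 wild-type (WT) littermates. All were male C57BL/6 mice aged 5 weeks from heterozygous parents, and 1 Affymetrix array was run per mouse. Which exons the Atf7 allele lacks, and whether the mice came from separate litters, is not stated in the labels. The values are log2 expression per probe set, and a difference of KO minus WT is therefore a log2 difference. The series asks how Atf7, a transcription factor of the ATF/CREB family, bears on fat cell differentiation and heat production.

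The respiratory chain passes electrons from fuel oxidation to oxygen and pumps protons across the inner mitochondrial membrane. Complex II, succinate dehydrogenase, feeds electrons in from the citric acid cycle, complex III passes them to cytochrome c, and complex IV hands them to oxygen. ATP synthase lets the protons back to make ATP. Heat-producing adipocytes hold many mitochondria and return protons through the uncoupling protein Ucp1 instead, and brown fat is known for a low content of ATP synthase relative to its respiratory chain, linked to low expression of the c-ring gene Atp5g1.

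Regulation of these genes is often shared. The transcription factors NRF1, the estrogen-related receptors (ERR), GABP of the ETS family and YY1 are known activators of many of them, and ATF/CREB proteins bind the cyclic AMP response element (CRE). Promoter windows of 300 bases, from 250 before to 50 after the annotated start in RefSeq (GRCm38.p6), were at hand for 27 of the 34 measured genes. The upstream 250 bases are shown for the 5 genes with at least 2 kinds of the full motifs wholly within them and for Atp5g1, whose window held no full motif. Capitals mark the NRF1 motif GCGCANGCG, the ERR motif AAGGTCA, the ETS motif CCGGAAG, the YY1 motif AAGATGGC and the CRE TGACGTCA, searched on both strands, where N is any base.
Sdhd, chr9:50603850-50604099, minus strand: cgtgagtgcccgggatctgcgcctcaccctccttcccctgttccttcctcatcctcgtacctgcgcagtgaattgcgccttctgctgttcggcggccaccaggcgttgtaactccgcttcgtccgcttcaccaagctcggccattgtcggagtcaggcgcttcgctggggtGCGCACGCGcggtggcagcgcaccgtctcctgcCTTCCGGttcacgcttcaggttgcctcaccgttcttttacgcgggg
Cycs, chr6:50566570-50566819, minus strand: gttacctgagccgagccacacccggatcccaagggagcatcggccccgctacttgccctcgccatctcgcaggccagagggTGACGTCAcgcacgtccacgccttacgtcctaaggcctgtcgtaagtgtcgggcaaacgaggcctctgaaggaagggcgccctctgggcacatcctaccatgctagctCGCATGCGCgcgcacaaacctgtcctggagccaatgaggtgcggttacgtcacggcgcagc
Atp5h, chr11:115419920-115420169, minus strand: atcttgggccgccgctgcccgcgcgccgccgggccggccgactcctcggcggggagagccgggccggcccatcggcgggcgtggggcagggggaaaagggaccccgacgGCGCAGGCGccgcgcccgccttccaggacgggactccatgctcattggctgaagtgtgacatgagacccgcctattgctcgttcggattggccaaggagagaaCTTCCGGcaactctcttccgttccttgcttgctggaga
Atp5l, chr9:44920743-44920992, minus strand: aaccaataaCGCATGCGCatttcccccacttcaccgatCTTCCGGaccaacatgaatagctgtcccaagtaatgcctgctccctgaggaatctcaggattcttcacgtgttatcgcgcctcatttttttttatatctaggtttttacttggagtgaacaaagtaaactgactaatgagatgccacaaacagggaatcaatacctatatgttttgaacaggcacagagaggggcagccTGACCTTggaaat
Atpif1, chr4:132535415-132535664, minus strand: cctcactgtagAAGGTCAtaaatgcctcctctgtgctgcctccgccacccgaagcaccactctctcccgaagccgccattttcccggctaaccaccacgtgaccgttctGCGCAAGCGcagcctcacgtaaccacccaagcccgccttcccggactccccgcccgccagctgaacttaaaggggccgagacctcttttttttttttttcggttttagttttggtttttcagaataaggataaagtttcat
Atp5g1, chr11:96075632-96075881, minus strand: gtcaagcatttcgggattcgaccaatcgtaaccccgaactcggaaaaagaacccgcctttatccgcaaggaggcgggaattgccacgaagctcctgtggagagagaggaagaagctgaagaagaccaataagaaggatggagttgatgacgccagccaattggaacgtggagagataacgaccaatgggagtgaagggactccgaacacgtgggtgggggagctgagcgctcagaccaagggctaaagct

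In these windows the full NRF1 motif was found in 11 of 27 subunit genes (40.7%), against 9.69% of the 15562 windows of genes on the array and 6.47% of all 27025 windows. The ERR motif was found in 6 (22.2%, against 3.78% of array genes and 4.66% of all windows) and the ETS motif in 8 (29.6%, against 12.5% and 9.12%). YY1 and CRE motifs were found in 2 windows each (7.41%, against 3.43% and 2.5% of array genes, and 2.88% and 1.88% of all windows). The CRE lay in Cycs at position -169 from the start and in Uqcrfs1 at position -29. The shorter CRE core TGACG, which the full CRE contains, was in 9 windows (33.3%, against 25.4% of array genes and 21% of all windows). A window was scored only as holding a motif or not. A match of letters is no evidence of binding, and the windows of 10 genes held none of the 5 full motifs.

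**Figure D1:**
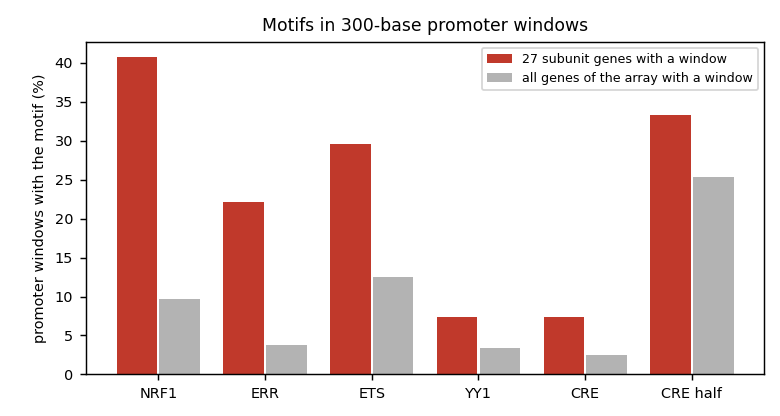
Share of promoter windows that hold each motif, in percent, for the 27 subunit genes with a window (red) and for all genes of the array with a window (grey). The NRF1 bars stand at 40.7% and 9.69%, and the CRE bars at 7.41% and 2.5%.

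The label of the targeted gene was checked first. Atf7 probe set 10433032 was at 6.22, 6.53 and 6.49 in KO and at 8.95, 9.20 and 9.07 in WT, a difference of -2.66 (SE 0.12; limma's adjusted p 0.00658 when all probe sets are fitted). The other Atf7 probe set, 10433034, was brighter, at 9.23, 9.10 and 9.42 in KO and at 9.34, 9.39 and 9.52 in WT, a difference of -0.17 (SE 0.12; limma's adjusted p 0.73). The 2 probe sets thus disagreed, and where each lies relative to the deletion is not known here. Arrays correlated at 0.969 to 0.990 across probe sets, with KO replicate 3 at or below 0.981 with every other array. Of the fat cell markers, the adipokine Adipoq was at 12.24 to 12.68 in KO and at 12.37 to 12.52 in WT, so this fat cell marker was bright on all 6 arrays. It does not by itself identify the depot. Other cells were present too. Below, a list's level on an array averages its genes, each centred on its own mean of the 6 arrays. For 24 B and T cell markers it was -0.12, 0.67 and -2.58 in KO replicates 1, 2 and 3, against 0.69, 0.55 and 0.80 in WT, and 0 of the 24 had a positive difference. For 18 skeletal muscle markers it was 1.32, -1.22 and -1.25 in KO, against -1.27, 1.98 and 0.44 in WT. For 13 mature adipocyte markers it was 0.05, -0.09 and 0.18 in KO, against -0.02, 0.03 and -0.15 in WT. For 8 thermogenic adipocyte genes, Ucp1 among them, it was 0.50, 0.32 and 0.84 in KO, against -0.32, -0.54 and -0.80 in WT.

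Most subunit genes had slightly higher values in KO fat, and none passed limma's test over all genes. Of the 34 measured genes 31 had a positive difference, with a median of 0.35. Over all 19937 genes 53% were positive, and the median was 0.01. At an unadjusted p under 0.05, 17 of the 34 were higher and 1 was lower, where the background over all genes was 4.99% higher and 2.48% lower. In 19 genes all KO arrays exceeded all WT arrays (background 7.96%), and in 1, Atpif1, all KO arrays lay below all WT arrays (background 5.97%). The limma test, adjusted over all genes, called 0 of the 34, as it did for 0% of all genes, and adjusted p-values of the 34 ran from 0.622 to 0.928. Each gene was tested on its brightest probe set, which for Atf7 was 10433034, the one with little difference. With the mean of all probe sets the test called 1 gene, not among the 34. The number higher at an unadjusted p under 0.05 was 8 without KO replicate 1, 7 without KO replicate 3, 7 without WT replicate 1 and 6 without WT replicate 3. Without KO replicate 2, 31 genes had no overlap with KO above WT, a count that leaving out an array can only keep or raise. In tissue RNA, fewer cells of a type and less RNA per cell cannot be told apart.

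**Figure D2:**
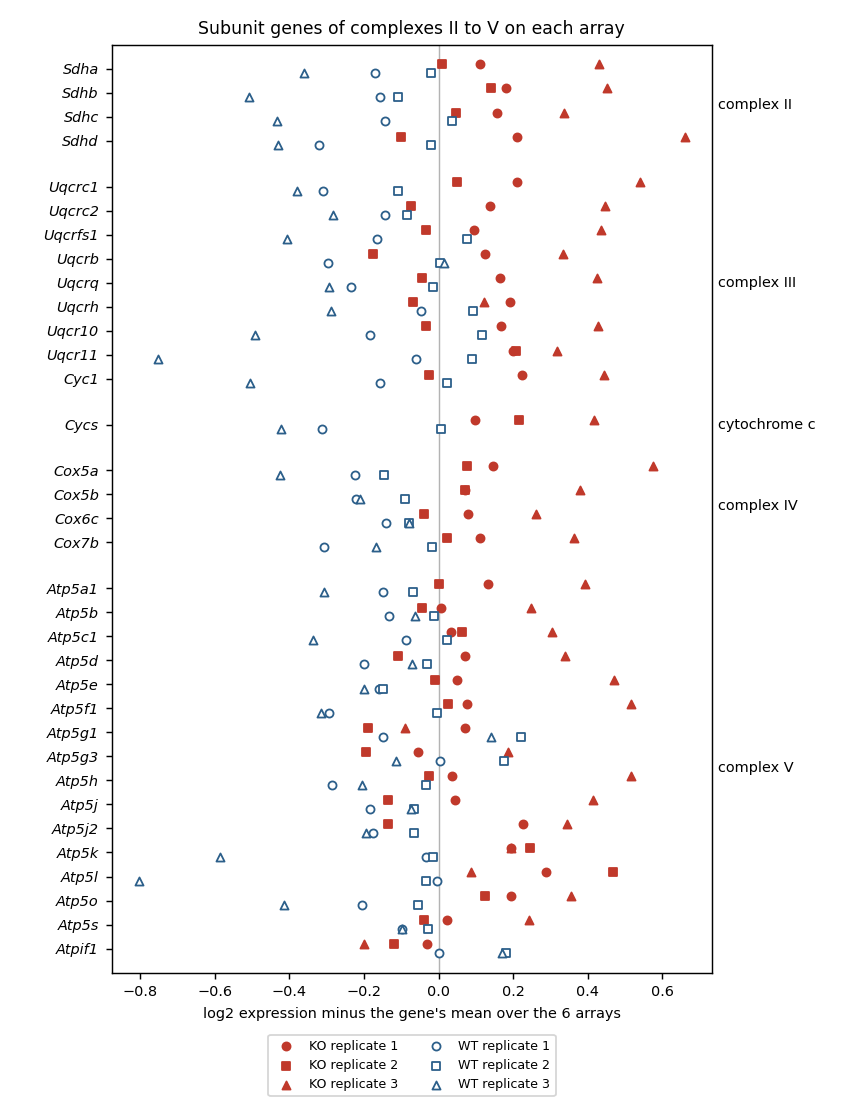
Log2 expression of each subunit gene on each array minus that gene's mean over the 6 arrays, with KO arrays as filled red symbols above the open blue WT symbols. KO replicate 3 is the highest array for 29 of 34 genes and WT replicate 3 the lowest for 23 of 34.

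The arrays of each group differed among themselves. KO replicate 3 was the highest array for 29 of the 34 genes (85.3%), against 31.4% of all genes, and WT replicate 3 the lowest for 23 (67.6%), against 20.2% of all genes. The level of the 34 genes was 0.12, 0.00 and 0.34 in KO replicates 1, 2 and 3, against -0.17, -0.01 and -0.29 in WT. KO replicate 2 and WT replicate 2 were thus at nearly the same level. Genes above all 3 WT arrays numbered 31 in KO replicate 1, 19 in KO replicate 2 and 32 in KO replicate 3, against 28.7%, 21.8% and 38.6% of all genes on those arrays. Within KO the lymphocyte markers had the opposite order, lowest in replicate 3 and highest in replicate 2, and their part in the result was not tested. With the lymphocyte level as a covariate the median of the 34 genes was 0.17, and 29 were positive. In that fit 5 were higher at an unadjusted p under 0.05, against 2.3% of all genes. KO replicate 2 and WT replicate 1 had near levels of lymphocyte (0.67 and 0.69) and muscle markers (-1.22 and -1.27). Between these 2 arrays 30 of 34 genes were higher in the KO array, against 44.5% of all genes, with a median of 0.15. This pair was chosen after its marker levels were seen, and it allows no test. WT replicates 2 and 3 had lymphocyte levels of 0.55 and 0.80, with muscle levels of 1.98 and 0.44. The 34 genes were at -0.01 and -0.29 there, against 0.00 in KO replicate 2.

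**Figure D3:**
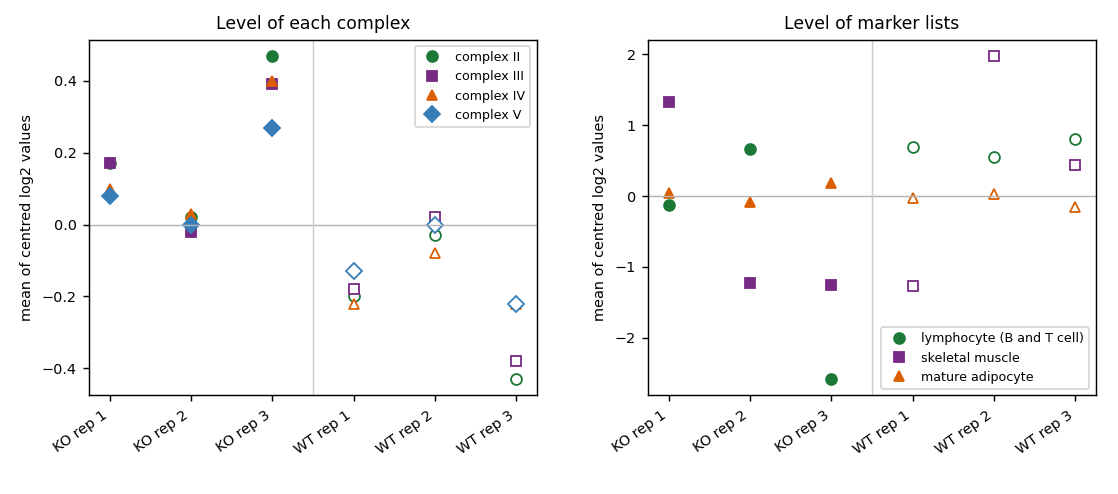
Left, level of each complex on each array (mean of centred log2 values); right, level of 3 marker lists on the same arrays, with KO filled and WT open. KO replicate 3 has the highest level of all 4 complexes (0.27 to 0.47) and the lowest lymphocyte level (-2.58).

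Succinate dehydrogenase was the complex in which each gene, 4 of 4, was higher at an unadjusted p under 0.05, and its median was 0.44. Sdhb, the iron-sulfur subunit that carries electrons away from succinate, was at 10.72, 10.68 and 10.99 in KO and at 10.38, 10.43 and 10.03 in WT. All KO arrays were above all WT arrays, and the difference was 0.51 (SE 0.14, 95% interval 0.18 to 0.85), or 1.43-fold. Its unadjusted p of 0.00854 stayed under 0.05 without each array in turn, and its adjusted p from limma was 0.622. Sdha, the flavoprotein that holds the succinate site, was at 11.50, 11.40 and 11.82 in KO and at 11.22, 11.37 and 11.03 in WT. Its difference was 0.37 (SE 0.14), with KO replicate 2 only just above WT replicate 2. The membrane anchors that bind ubiquinone differed in spread. Sdhc was at 11.15, 11.04 and 11.33 in KO and at 10.85, 11.03 and 10.56 in WT, a difference of 0.36 (SE 0.14) that was 0.23 without WT replicate 3. Sdhd was at 10.38, 10.07 and 10.83 in KO and at 9.85, 10.15 and 9.74 in WT, a difference of 0.51 (SE 0.20) that was 0.31 without KO replicate 3, and its groups overlapped through KO replicate 2 and WT replicate 2. Sdha, Sdhc and Sdhd each kept an unadjusted p under 0.05 in 2 of the 6 fits without 1 array. Both NRF1 and ETS motifs stand in the Sdhd sequence shown above. The level of the complex was 0.17, 0.02 and 0.47 in KO, against -0.20, -0.03 and -0.43 in WT.

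In complex III all 9 genes were positive and their median was 0.37. Uqcrc1, Uqcrq and Cyc1 were the 3 with an unadjusted p under 0.05. Uqcrc1, a core subunit outside the electron path, was at 11.19, 11.03 and 11.52 in KO and at 10.67, 10.87 and 10.60 in WT, with no overlap. Its difference of 0.53 (SE 0.15, 95% interval 0.19 to 0.87), or 1.45-fold, kept an unadjusted p under 0.05 without each array in turn, with 0.008 on all arrays. Its promoter window holds 3 overlapping or neighbouring NRF1 matches just after the start. Cyc1, the cytochrome c1 subunit that hands electrons to cytochrome c, was at 11.09, 10.84 and 11.31 in KO and at 10.71, 10.89 and 10.36 in WT. That is a difference of 0.43 (SE 0.17) with overlapping groups. Uqcrq, a small membrane subunit, was at 10.46, 10.25 and 10.72 in KO and at 10.06, 10.28 and 10 in WT, a difference of 0.37 (SE 0.14), also with an overlap through KO replicate 2.

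The intervals of the other 6 genes of complex III all included 0. Uqcrc2, the other core subunit, differed by 0.34 (95% interval -0.0022 to 0.68) with all KO arrays above all WT arrays, although KO replicate 2 (11.56) and WT replicate 2 (11.55) nearly met. Uqcr11, at 10.09, 10.10 and 10.21 in KO and 9.83, 9.98 and 9.14 in WT, had a difference of 0.48 (SE 0.21), which was 0.23 once WT replicate 3, its lowest array, was left out. Uqcrfs1, the Rieske iron-sulfur protein, differed by 0.33 (SE 0.17) and Uqcr10 by 0.37 (SE 0.18), both with overlap. Uqcrh, the hinge protein, and Uqcrb, a ubiquinone-binding subunit, had the largest p of the complex. Uqcrh was at 11.41, 11.15 and 11.34 in KO and at 11.17, 11.31 and 10.93 in WT, a difference of 0.17 (95% interval -0.14 to 0.47). Uqcrb differed by 0.19 (95% interval -0.18 to 0.55), and by -0.0018 with the lymphocyte level as a covariate.

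Cycs, cytochrome c, shuttles electrons between complexes III and IV. It was at 11.52, 11.64 and 11.84 in KO and at 11.11, 11.43 and 11 in WT, with all KO arrays above all WT arrays. The difference was 0.49 (SE 0.14, 95% interval 0.15 to 0.83), or 1.4-fold, with an unadjusted p of 0.0108 and an adjusted p of 0.622 from limma. Its other 2 probe sets disagreed. The brighter differed by 0.47 with overlapping groups, and a dim one, between 5.18 and 5.90 on all arrays, by -0.02. Cycs is the gene whose upstream sequence above holds both a full CRE and an NRF1 motif.

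In complex IV, cytochrome c oxidase, all 4 measured genes had KO arrays wholly above WT arrays on the probe set used. Their median was 0.34, and the unadjusted p was under 0.05 for 3. Cox5a, a matrix-side subunit, was at 10.16, 10.09 and 10.59 in KO and at 9.79, 9.87 and 9.59 in WT. Its difference was 0.53 (SE 0.16, 95% interval 0.16 to 0.89), or 1.44-fold, and its unadjusted p of 0.0112 stayed under 0.05 without each array in turn. Cox5b, a zinc-binding matrix-side subunit, was at 12.43, 12.43 and 12.74 in KO and at 12.14, 12.27 and 12.15 in WT, a difference of 0.34 (SE 0.11). Cox7b, a small membrane subunit, was at 12.35, 12.26 and 12.60 in KO and at 11.93, 12.22 and 12.07 in WT, a difference of 0.33 (SE 0.13). Cox6c, another small membrane subunit, was at 13.03, 12.91 and 13.21 in KO and at 12.81, 12.87 and 12.87 in WT, a difference of 0.20 (95% interval -0.04 to 0.44). The second probe sets of Cox6c and Cox7b differed by 0.12 and 0.36, and in both the groups overlapped. That of Cox5b differed by 0.37 without overlap.

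**Figure D4:**
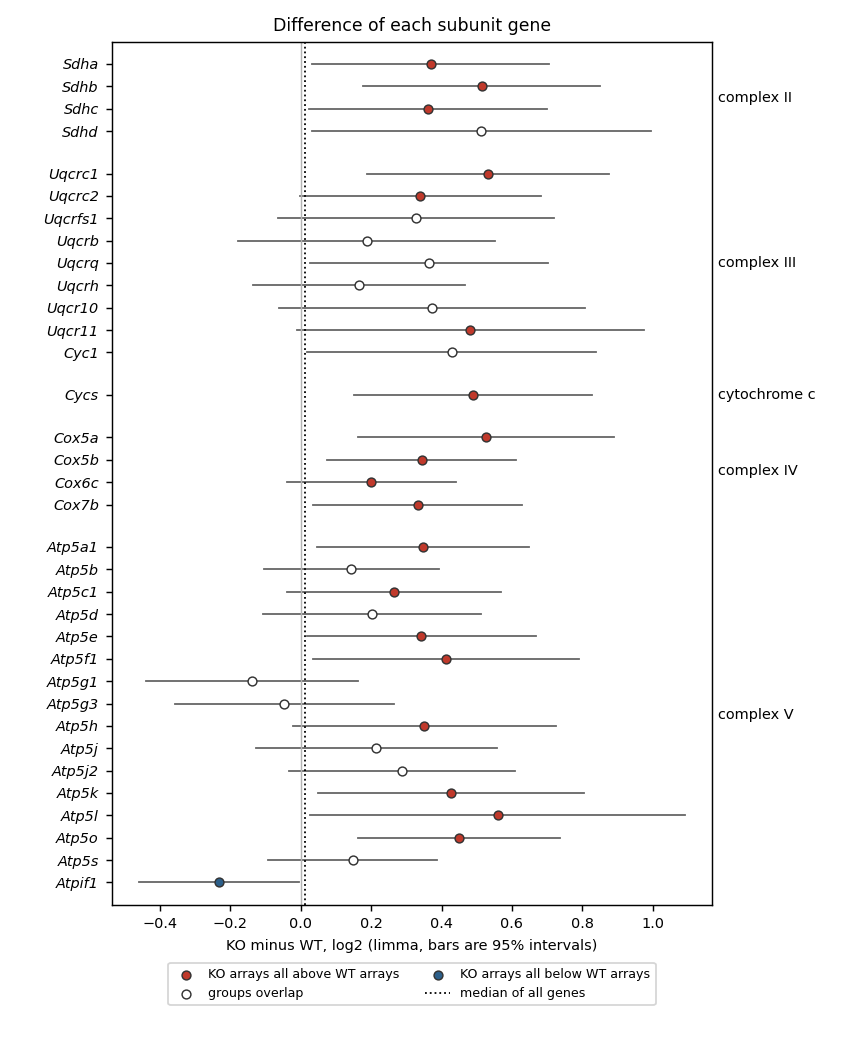
Difference of KO minus WT in log2 for each subunit gene with its 95% interval from limma, grouped by complex; the dotted line is the median of all genes (0.01). Red points mark the 19 genes with KO arrays all above WT arrays, open points overlapping groups, and the blue point Atpif1.

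Complex V, which also had the most genes, had the widest range of differences, from -0.23 to 0.56, with 13 of 16 genes positive and a median of 0.28. Without the c-ring pair, factor B (Atp5s) and the inhibitor, its other 12 genes ran from 0.14 to 0.56. At an unadjusted p under 0.05, 6 of its genes were higher and 1 was lower. In the catalytic head, Atp5a1 (alpha) was at 11.69, 11.56 and 11.95 in KO and at 11.41, 11.49 and 11.25 in WT, a difference of 0.35 (SE 0.13) with no overlap. Its partner Atp5b (beta), which carries the catalytic sites, was at 12.77, 12.72 and 13.01 in KO and at 12.63, 12.75 and 12.70 in WT. That difference was 0.14 (95% interval -0.10 to 0.39), and the groups overlapped. In the central stalk, which turns inside the head, Atp5c1, Atp5d and Atp5e differed by 0.26, 0.20 and 0.34, with Atp5e at an unadjusted p of 0.0419.

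The peripheral stalk, which holds the head still, had a median of 0.38 over its 4 genes. Atp5o was at 10.91, 10.84 and 11.07 in KO and at 10.51, 10.66 and 10.30 in WT, with no overlap. Its difference of 0.45 (SE 0.12, 95% interval 0.16 to 0.74), or 1.36-fold, had the smallest unadjusted p of the 34 genes, 0.00757, which stayed under 0.05 without each array in turn. Atp5f1, subunit b, differed by 0.41 (SE 0.16), Atp5h, subunit d, by 0.35 (SE 0.16) and Atp5j, coupling factor 6, by 0.22 (SE 0.14). The difference of Atp5j was -0.0041 with the lymphocyte level as a covariate.

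Among the small membrane subunits, Atp5k was at 9.60, 9.65 and 9.60 in KO and at 9.37, 9.39 and 8.82 in WT, a difference of 0.43 (SE 0.16). Atp5l had the largest difference of the 34 genes, 0.56 (SE 0.23), at 11.77, 11.95 and 11.57 in KO and at 11.48, 11.45 and 10.68 in WT. It rests in part on WT replicate 3, since without that array it was 0.30. Atp5l has 5 probe sets, with differences from 0.31 to 0.66, and in 4 of them all KO arrays exceeded all WT arrays. KO replicate 3 was not the highest array for Atp5k or Atp5l, nor for Uqcrh, Atp5g1 and Atpif1, the 5 exceptions among the 34 genes. Atp5j2, the third of this group, differed by 0.29 with overlap.

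The c-ring genes of the list and the inhibitor were the 3 genes with a negative difference. The c-ring turns as protons pass, and Atp5g1 and Atp5g3 encode precursors of the same mature ring subunit. The list holds only these 2 c-ring genes, so their level need not be that of every gene for the ring. Atp5g1 was at 10.46, 10.20 and 10.30 in KO and at 10.24, 10.61 and 10.53 in WT, a difference of -0.14 (SE 0.13, 95% interval -0.44 to 0.16). Atp5g3 was at 11.14, 11 and 11.38 in KO and at 11.20, 11.37 and 11.08 in WT, a difference of -0.05 (SE 0.13, 95% interval -0.36 to 0.26). Both groups overlapped, and the adjusted p-values from limma were 0.746 and 0.928. The sign of Atp5g1 stayed negative without each array in turn (-0.25 to -0.06), and that of Atp5g3 turned without KO replicate 2 and without WT replicate 2. A second, dimmer probe set of Atp5g1 differed by -0.14 as well.

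Atpif1, the inhibitor that blocks ATP hydrolysis by the synthase when the proton gradient collapses, was at 10.99, 10.90 and 10.82 in KO and at 11.02, 11.20 and 11.19 in WT. All KO arrays were below all WT arrays, KO replicate 1 by 0.03. The difference was -0.23 (SE 0.10, 95% interval -0.46 to -0.0047), with an unadjusted p of 0.0465 and an adjusted p of 0.622 from limma. Leaving out each array in turn gave -0.29 to -0.19, and the difference was at an unadjusted p under 0.05 in 1 of those 6 fits. With the lymphocyte level as a covariate it was -0.19. Its upstream sequence above holds an ERR and an NRF1 motif, as do those of Atp5l, whose difference had the opposite sign. Atp5s, or factor B, was at 7.01, 6.95 and 7.23 in KO and at 6.89, 6.96 and 6.89 in WT, a difference of 0.15 (95% interval -0.09 to 0.39).

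Within complex V the KO minus WT difference was lower for the c-ring pair (median -0.09) than for the other structural subunits (median 0.35). The 12 other subunits, without Atp5s, had a level of 0.11, 0.04 and 0.35 in KO, against -0.16, -0.04 and -0.30 in WT. The level of the c-ring pair was 0.01, -0.20 and 0.05 in KO, against -0.07, 0.20 and 0.01 in WT. The c-ring level minus that of the other subunits was therefore -0.11, -0.24 and -0.30 in KO, against 0.09, 0.24 and 0.31 in WT. All KO arrays were below all WT arrays in this measure, whose zero is set by the centring. The level of the 12 other subunits alone already had all KO arrays above all WT arrays, while that of the c-ring pair overlapped. A list without a difference of its own can therefore separate in this measure too. No test was made of the gap between the c-ring pair and the other subunits.

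**Figure D5:**
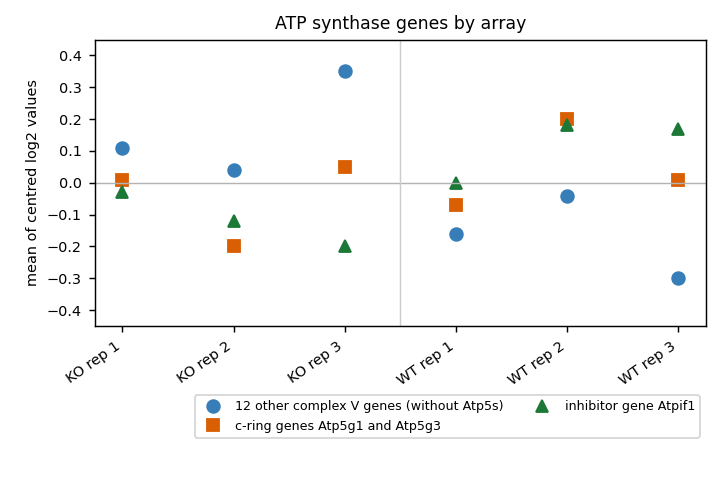
Level of ATP synthase genes on each array (mean of centred log2 values): 12 structural subunits (circles), the listed c-ring genes Atp5g1 and Atp5g3 (squares) and the inhibitor Atpif1 (triangles). Circles minus squares is larger in every KO array than in any WT array, with the zero set by the centring. Circles alone are also higher in every KO array than in any WT array, and squares overlap.

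Brightness was set beside these differences. All 34 genes had means above the median gene (6.89), from 6.99 to 12.95. The 6 genes with a mean above 12 differed by 0.14 to 0.34 with a median of 0.20. The medians were 0.29 for the 11 genes between 11 and 12, 0.43 for the 11 between 10 and 11, and 0.36 for the 6 below 10. The c-ring genes and Atpif1 had means between 10 and 12, where other genes differed by up to 0.56. The part of brightness in these values was not tested.

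Of genes linked to the same complexes, assembly factors were mostly positive as well. Among 34 measured factors 27 were positive and the median was 0.15. At an unadjusted p under 0.05, 2 were higher and 0 lower, a share near the background of 4.99% and 2.48% of all genes, and none passed limma's adjusted test. The 5 factors of complex V, all positive, had a median of 0.32, and those of complexes II, III and IV had medians of 0.03, 0.17 and 0.11. No difference from the subunit genes was tested. The 3 with the smallest p among positive factors were Tmem70, needed for ATP synthase assembly, at 8.03, 7.93 and 8.11 in KO and 7.59, 7.90 and 7.62 in WT (difference 0.32), Fmc1 (0.29) and Tmem242 (0.42). Among negative ones they were Uqcc3 of complex III (-0.13), Coa4 (-0.08) and Sdhaf1 of complex II (-0.04). The mitochondrially encoded subunit mt-Co2 was the only one of 6 such genes measured here. It was at 12.67, 12.81 and 12.81 in KO and at 12.61, 12.66 and 12.66 in WT, a difference of 0.12 (SE 0.09) with an adjusted p of 0.673.

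The 14 listed regulators of mitochondrial genes had differences of both signs. Of these 6 were positive, 4 with an unadjusted p under 0.05, and limma's adjusted test called none. Over all genes 53% were positive and 4.99% were higher at that unadjusted threshold. Ppargc1a, a coactivator of mitochondrial biogenesis, was at 8.13, 7.90 and 8.82 in KO and at 7.60, 7.48 and 7.18 in WT, a difference of 0.86. Ppargc1b, its relative, was at 8.19, 8.36 and 8.46 in KO and at 7.92, 7.81 and 7.27 in WT, a difference of 0.67. Esrrg, an estrogen-related receptor, was at 6.80, 6.79 and 7.21 in KO and at 6.46, 6.39 and 6.33 in WT, a difference of 0.54. Ppara, a receptor that drives fatty acid oxidation, was at 9.44, 8.95 and 9.48 in KO and at 8.58, 7.73 and 7.54 in WT, a difference of 1.34. In these 4 genes the groups did not overlap (KO above WT in 7.96% of all genes), and the unadjusted p stayed under 0.05 without each array in turn. Without KO replicate 3 the differences of Ppargc1a and Esrrg were 0.59 and 0.40. Without WT replicate 3 those of Ppargc1b and Ppara were 0.47 and 1.14. With the lymphocyte level as a covariate Ppargc1a, Ppargc1b and Esrrg differed by 0.47, 0.59 and 0.35. Esrra differed by 0.33 (SE 0.16) and Pparg by 0.40 (SE 0.20), with overlap. Without WT replicate 3 these were 0.17 and 0.25, and Pparg was at 0.21 with the lymphocyte level as a covariate.

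Nrf1 and Yy1, whose motifs were searched, had negative differences, unlike Esrrg, and so had Gabpb1, a second GABP gene. Gabpa was near 0, with a sign that turned when arrays were set to a common median. Nrf1 differed by -0.23 (SE 0.15), Yy1 by -0.22 (SE 0.10), Gabpb1 by -0.20 (SE 0.13), Gabpa by -0.0041 (SE 0.11) and Esrrb by -0.02 (SE 0.12). Yy1 was at 9.65, 9.60 and 9.62 in KO and at 9.70, 9.85 and 9.99 in WT. All its KO arrays were below all WT arrays (background 5.97%), and leaving out each array in turn gave -0.30 to -0.15. Tfam, which transcribes and packs mitochondrial DNA, differed by -0.05, Pprc1 by -0.24 and Myc by -0.38 (SE 0.18). Without KO replicate 3 the differences of Nrf1, Gabpb1, Pprc1 and Myc were -0.09, -0.09, 0.00089 and -0.23, and with the lymphocyte level as a covariate they were -0.01, -0.03, 0.11 and -0.15. That of Tfam was 0.03 without KO replicate 1, and that of Esrrb 0.07 without WT replicate 3. Subunit genes with an NRF1 match had a median difference of 0.45 (11 genes, from -0.23 to 0.56), against 0.31 for the 16 without (from -0.14 to 0.53). Those with an ETS match had a median of 0.45 (8 genes), against 0.33 for the 19 without. For ERR the medians were 0.38 (6 genes) with a match and 0.34 (21 genes) without. For the CRE core TGACG they were 0.29 (9 genes) with and 0.37 (18 genes) without. The full CRE had 0.41 (2 genes) with and 0.34 (25 genes) without, and YY1 0.35 (2 genes) and 0.34 (25 genes). The genes without an ETS match ran from -0.23 to 0.53 and those with one from 0.17 to 0.56, so ranges overlapped for NRF1 and ETS, and no test was made.

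Related mitochondrial genes were also mostly positive, beside the median of 0.35 for complexes II to V. The 35 measured complex I subunits were all positive with a median of 0.34, and 18 had an unadjusted p under 0.05. The 13 measured citric acid cycle genes were all positive too, with 8 higher and a median of 0.40. Of 77 mitochondrial ribosomal protein genes 72 were positive, 11 higher and 1 lower, with a median of 0.17. Over all genes 53% were positive, with 4.99% higher and 2.48% lower at the same unadjusted threshold. No difference between these groups was tested. The 12 oxidase subunits with tissue isoforms, left out of the list, had a median of 0.30 and ran from -0.61 to 1.51, with 10 positive. The largest of these differences was that of the tissue isoform Cox7a1, 1.51. Cox4i1, the widely expressed isoform of another oxidase subunit, differed by 0.27. Ucp1 differed by 2.91, and both Ucp1 and Cox7a1 had an adjusted p of 0.237 from limma.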

How the data were processed

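The authors deposited log2 expression values per probe set for 6 arrays. RMA, affy and limma are named for them, per the submitters' processing notes; they give no versions, options or annotation build. RMA gives all arrays like distributions, which hides any shift that most genes share. Arrays per group (3) limit the precision, and with 3 against 3 the smallest exact permutation p for one gene is 0.1. Groups came from sample titles.

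Of 34760 probe sets, 21640 carried 1 gene symbol, 1321 several and 11799 none. Of several probe sets of a gene, the brightest on average was used (19937 genes, 954 with several probe sets). The difference KO minus WT was tested, two-sided, by lmFit and eBayes (limma 3.58.1, R 4.3.3) over all genes with Benjamini-Hochberg adjustment at 0.05, and checked on simulated data. Intervals are limma's moderated 95% ones. Processed pseudogenes of small subunits can share probes, and their share cannot be separated here.

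Genes, lists and settings were chosen with earlier results of these data known, so nothing here is independent support. Named in full were all complex II genes, Cycs, the c-ring pair, factor B and inhibitor, and per complex the 3 smallest and 2 largest p, with others added after their values were seen. Promoter windows are RefSeq's, the start listed first per gene; those printed were picked after the motif search. No protein table was used.

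Alternatives were 2 normalizations between arrays, leaving out dim genes, the mean of all probe sets, an intensity trend with robust prior, the replicate number as a block, 3 marker levels as covariates, and each array left out.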

Additional observations from a re-analysis of the deposited data

How the results depend on the processing

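The limma test called 0 of the 34 subunit genes at an adjusted p under 0.05 under every alternative run. The number higher at an unadjusted p under 0.05 was 17 on all arrays, against 4.99% of all genes. It was 8 when the replicate block was added (4.6% of all genes). As a covariate, the lymphocyte level gave 5 (2.3%), the muscle level 7 (3.15%) and the adipocyte level 8 (2.96%). Without each array in turn it ran from 6 to 23, and the share of all genes from 2.81% to 10.4%. These fits have fewer residual degrees of freedom. The labels tie arrays with the same replicate number by that number alone. Correlations of their deviations were -0.143, -0.079 and -0.0446, against 0 to 0.095 for KO and WT arrays with different numbers. Whether same-numbered arrays share a litter or a batch cannot be told from these values. Genes with KO arrays all above WT arrays, 19 in all, numbered 15 with the mean of all probe sets, 16 with a common array median and 21 with repeated quantile normalization; without each array in turn they ran from 19 to 31, a range that cannot go below 19 and says nothing of stability. The median over the 34 genes, 0.35, was 0.17 with the lymphocyte level and 0.21 with the adipocyte level as a covariate, and ran from 0.24 without KO replicate 3 to 0.43 without KO replicate 2. The medians of complexes II, III, IV and V were 0.22, 0.17, 0.19 and 0.11 with the lymphocyte level and 0.25, 0.18, 0.25 and 0.15 with the adipocyte level; the cause was not tested. The medians of all 4 complexes stayed positive under every alternative. The other normalizations, the filter, the mean of probe sets and the trend moved the median over the 34 genes to between 0.34 and 0.37. In these settings 16 to 18 of the 34 were higher, against 5.06% to 6.2% of all genes tested. With a common array median the middle of all genes shifted to 0.04.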
